A study of Mus musculus with 24 samples.

Results

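The nuclear-encoded genes of the mitochondrial respiratory chain and of ATP synthase were followed through the activation of mouse splenic B cells with and without the transcription factor NFATc1. They were all genes with a probe set of a single gene symbol that begins with Nduf, Uqcr or Atp5, with Cox4 to Cox8, or is one of Sdha to Sdhd, and the probe set with the highest mean over all 24 arrays stood for each gene. This gave 90 genes of the 18194 with such a probe set, and 88 of them passed the filter on low values. Genes of these complexes that lie in mitochondrial DNA are outside the rule.

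The respiratory chain passes electrons from NADH through complex I, or from succinate through complex II, by way of ubiquinone and cytochrome c to complexes III and IV. Complexes I, III and IV pump protons across the inner membrane of the mitochondrion, and ATP synthase makes ATP from their return. B cells that are brought out of rest by their antigen receptor grow before they divide, and their mitochondrial mass and oxygen use are known to increase in this time.

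The samples form 8 groups of 3 biological replicates with 1 Affymetrix array each. The KO groups are splenic B cells of C57BL/6 mice in which exon 3 of Nfatc1 is flanked by loxP sites and was removed by Cre. The Cre comes from the Cd79a (mb-1) locus, a gene of the B cell receptor complex, so that the deletion is limited to the B lineage and other cells of the animal keep the gene. The WT groups are splenic B cells of C57BL/6 mice labelled WT, and whether these carry the loxP sites or Cre is not stated in the sources used here. KO and WT cells alike came from mice stated to be mostly 6 to 8 weeks old, and were enriched with beads. They were stimulated for 0, 3, 8 or 16 h with anti-IgM, which binds and activates the B cell receptor. The labels do not say whether mice were pooled, nor whether equal replicate numbers mark the same animals. The study calls the replicates biological without saying more, so p-values measure the spread between these samples.

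Of 6 B cell marker genes 5 had a probe set, and these were above the filter level, the 40th percentile of an array's own values, on all 24 arrays, with a lowest log2 signal of 7.90 on any array. Of the markers of other cells, Alas2 (erythroid) and Cd4 (T cell) were under that level on every array, and the other T cell markers Cd3e, Cd3d and Cd3g were above it on 4, 4 and 5 arrays. Cd8a was above it on all 24 (log2 signal 6.54 to 8.09), as were 4 of 5 macrophage markers, with Lyz2 as high as 13.16, 1 of 3 NK cell, 1 of 4 neutrophil, 1 of 2 erythroid and 2 of 3 platelet markers. Nfatc1 itself had higher means in KO than in WT cells on each of its 5 probe sets, for example 12.92 against 12.36 on the brightest, where log2 signals lay between 12.40 and 12.70 in KO cells against 11.65 and 12.08 in WT cells at 16 h. The sources used here do not say which of these probe sets, if any, lies in the deleted exon, and a probe set outside it is no check of the deletion, so KO and WT are used below as the samples are labelled. The 4 WT arrays with replicate number 2, called male-type below, had signals of the sex-linked gene Xist far below its highest, and the others did not. No other sex-linked gene was used for this label. The KO arrays with replicate number 2 at 8 and 16 h had the highest background of the 24 (5.26 and 5.45). Background here means the 25th percentile of an array's log2 signals and was not measured apart from them.

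Most of the 88 genes were higher after anti-IgM, little at 3 h, clearly at 8 h and most at 16 h, in both genotypes. The mean log2 signal over the 82 genes that are not tissue-restricted isoforms was 11.68, 11.68 and 11.66 on the unstimulated KO arrays, 11.75, 11.74 and 11.74 after 3 h, 12.25, 12.19 and 12.21 after 8 h and 12.51, 12.48 and 12.47 after 16 h. On the WT arrays it was 11.65, 11.61 and 11.64 unstimulated, 11.89, 11.69 and 11.67 after 3 h, 12.19, 12.18 and 12.12 after 8 h and 12.49, 12.58 and 12.41 after 16 h. Every array at 8 h lay above every array at 3 h and below every array at 16 h, and 1 WT array at 3 h, replicate 1, stood above the rest of its group. RNA of bulk cells was measured, so that more of a transcript per cell and more cells that hold it cannot be told apart. The trimmed mean signal was nearly the same on every array, so higher and lower are relative to the other genes of an array. A change in total RNA per cell would not show in these values.

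Each difference was tested with limma over 14335 genes with Benjamini-Hochberg adjustment, and a gene is called where its adjusted p was under 0.05. All differences are on the log2 scale. At 16 h against 0 h, 68 genes were higher and 3 lower in KO cells, which is 80.7% called, where 19.4% of all genes tested were higher and 16.4% lower, 35.9% in all. In WT cells 69 were higher and 3 lower, which is 81.8% called, beside 20.9% and 18.4% of all genes, 39.3% in all. The median difference of the 88 genes was 0.82 in KO and 0.86 in WT cells, beside 0.08 and 0.05 over all genes. At 8 h, 61 were higher and 3 lower in KO cells, beside 17.2% and 14.4% of all genes (31.6% in all). In WT cells 58 were higher and 4 lower, beside 17.7% and 15.7% of all genes (33.4% in all). The median at 8 h was 0.56 in both genotypes, beside 0.02 in KO and -0.04 in WT cells over all genes.

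At 3 h the genes were split. In KO cells 20 were higher and 10 lower, beside 16.6% and 21.7% of all genes. In WT cells 24 were higher and 9 lower, beside 17% and 21.3% of all genes. The called shares of the 88, 34.1% in KO and 37.5% in WT cells, were near the 38.3% of all genes called in each genotype. The median difference was 0.07 in KO and 0.10 in WT cells, beside -0.11 and -0.14 over all genes. The split at 3 h moved with the scaling of the arrays. It was 15 higher and 4 lower in KO and 26 and 3 in WT cells when arrays were set to the same median, and 16 and 15 in KO and 20 and 13 in WT cells after quantile normalization. Setting arrays to the same median raised the median of all genes by 0.15 in KO and 0.24 in WT cells at 3 h and by 0.16 in WT cells at 8 h, and quantile normalization raised it by 0.13 in WT cells at 3 h. With arrays set to the same median, the genes still called lower at 3 h were Cox7a2l, Ndufa6 and Ndufaf3 in both genotypes and Ndufa13 in KO cells. Ndufb3, Ndufb11, Ndufv3, Uqcrb and Cox7c were no longer called in either genotype, nor was Sdha in KO or Ndufa13 in WT cells. Without the WT array at 3 h that stood above its group, 17 genes were higher and 15 lower in WT cells. The shares of all genes called under these alternatives are not given here.

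**Figure D1:**
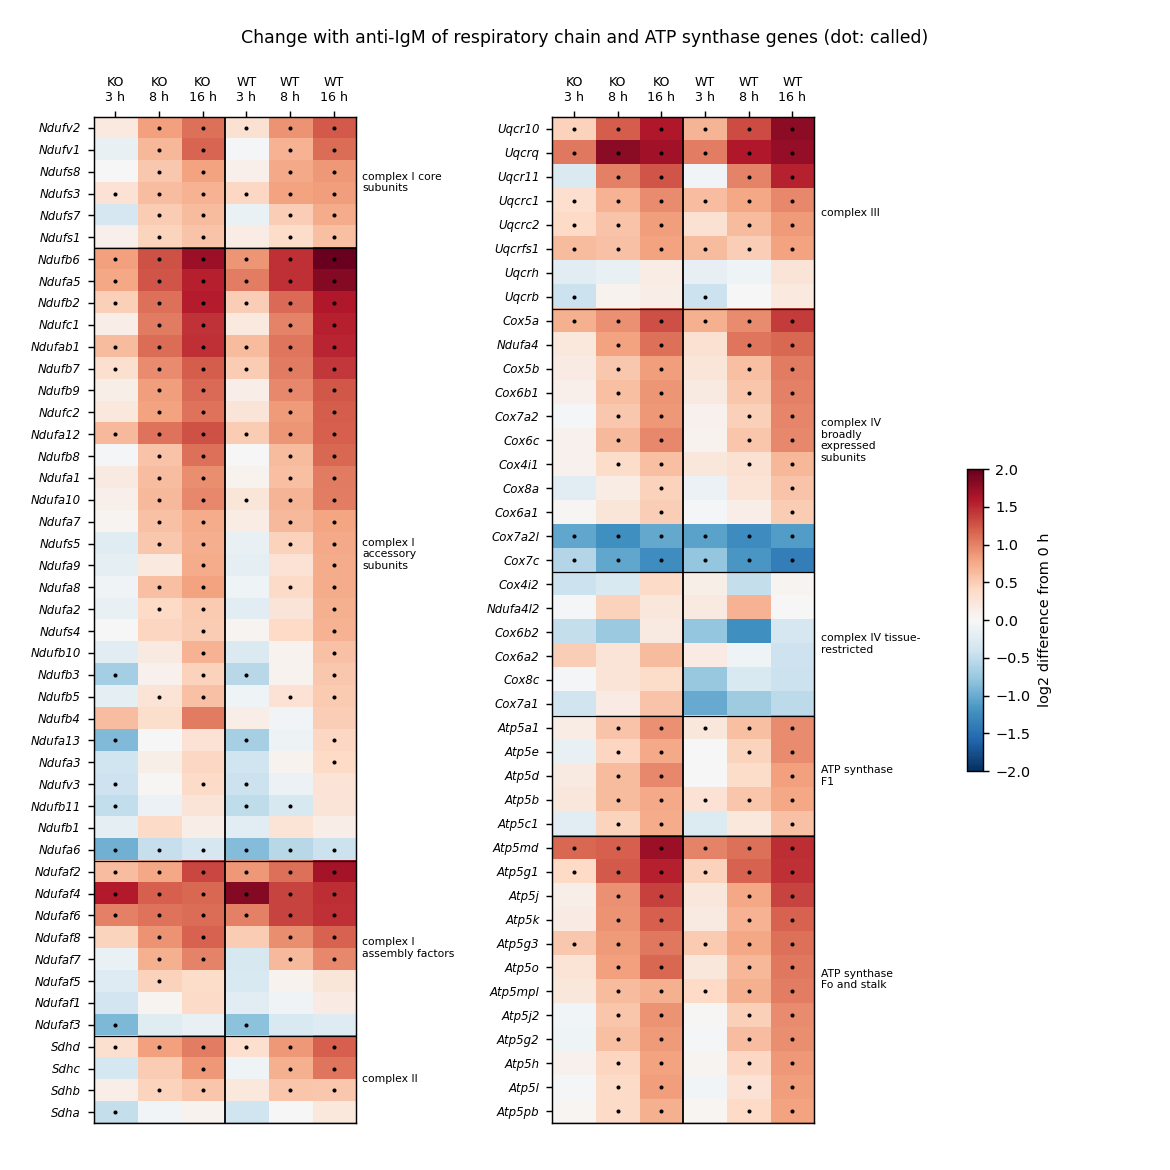
Log2 difference from 0 h for each of the 88 genes (rows, by complex and ordered by the 16 h difference in WT cells), with KO cells at 3, 8 and 16 h in the left columns and WT cells in the right columns of each panel; red is higher and blue lower than at 0 h, and a dot marks a gene called by limma. Red fills the 16 h columns of both genotypes except for Cox7a2l, Cox7c and Ndufa6, which were called lower, and for a few pale genes and tissue-restricted isoforms, which were not called.

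The genes called in KO and in WT cells were largely the same. At 16 h, 67 genes were called higher in both genotypes and 3 lower in both, 1 was called in KO cells alone and 2 in WT cells alone, and none was called in opposite directions. At 8 h these counts were 57 higher and 3 lower in both, 4 in KO alone and 2 in WT alone, and at 3 h they were 19 and 9 in both, 2 in KO alone and 5 in WT alone. A call in 1 genotype alone is no difference between them, which is tested further on. The highest of the 4 group means was that at 16 h for 74 of the 82 genes in KO cells and for 75 in WT cells. The exceptions were Ndufaf4, highest at 3 h in both genotypes, and Cox7a2l, Cox7c, Ndufa6 and Ndufaf3, highest at 0 h in both, while Ndufaf5, Ndufb1 and Uqcrq in KO cells and Ndufb1 and Sdhb in WT cells were highest at 8 h.

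Ndufb6, an accessory subunit in the membrane arm of complex I, had the highest difference at 16 h in both genotypes. Its log2 signals in KO cells were 11.23, 11.33 and 11.51 unstimulated, 12.16, 12.19 and 12.18 after 3 h, 12.71, 12.67 and 12.51 after 8 h and 13.19, 13.18 and 12.85 after 16 h. In WT cells they were 11.35, 11.31 and 11.24 unstimulated, 12.36, 12.12 and 12.05 after 3 h, 12.82, 12.74 and 12.73 after 8 h and 13.21, 13.46 and 13.17 after 16 h. The groups did not overlap between any 2 times, with the lowest arrays at 0 h and the highest at 16 h. The 16 h difference was 1.72 ± 0.11 in KO cells (3.29-fold, adjusted p = 3.45e-11) and 1.98 ± 0.11 in WT cells (3.93-fold, adjusted p = 2.20e-12), where the error here and below is limma's standard error with 3 arrays per group.

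Ndufa5, an accessory subunit of the matrix arm, had log2 signals in KO cells of 11.08, 10.81 and 10.69 unstimulated, 11.73, 11.58 and 11.60 after 3 h, 12.32, 12.11 and 11.92 after 8 h and 12.71, 12.33 and 12.20 after 16 h. The WT arrays had 10.83, 10.62 and 10.76 unstimulated, 12.14, 11.63 and 11.49 after 3 h, 12.32, 12.35 and 11.93 after 8 h and 12.64, 12.58 and 12.49 after 16 h. All stimulated arrays lay above the 0 h arrays of the same genotype, and the difference at 16 h was 1.55 ± 0.16 in KO cells (2.94-fold, adjusted p = 3.26e-08) and 1.83 ± 0.16 in WT cells (3.55-fold, adjusted p = 1.73e-09). Uqcrq, a small subunit of complex III that lies beside cytochrome b, was already 1.05 ± 0.13 higher at 3 h in KO cells and 1.03 ± 0.13 in WT cells. It had log2 signals in KO cells of 10.57, 10.71 and 10.86 unstimulated, 11.81, 11.57 and 11.91 after 3 h, 12.53, 12.50 and 12.54 after 8 h and 12.37, 12.19 and 12.61 after 16 h. WT cells had signals of 10.65, 10.51 and 10.92 unstimulated, 11.92, 11.52 and 11.73 after 3 h, 12.31, 12.33 and 12.27 after 8 h and 12.36, 12.50 and 12.49 after 16 h. The KO arrays at 16 h overlapped those at 8 h, and the 16 h differences were 1.68 ± 0.13 in KO and 1.76 ± 0.13 in WT cells, 3.21-fold and 3.38-fold. Of the 4 probe sets of Uqcrq tested, this was the 1 called at 16 h in each genotype. The other 3, with mean log2 signals of 5.12 to 7.23, were not called, and 2 of them stood below 0 in WT cells.

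Uqcr10, another small subunit of complex III, was higher at each later time. Its log2 signals in KO cells were 10.79, 11.05 and 11.00 unstimulated, 11.40, 11.30 and 11.53 after 3 h, 12.10, 12.10 and 12.26 after 8 h and 12.45, 12.33 and 12.85 after 16 h. The signals in WT cells were 10.97, 10.58 and 10.90 unstimulated, 11.71, 11.24 and 11.52 after 3 h, 12.06, 12.12 and 12.16 after 8 h and 12.52, 12.58 and 12.73 after 16 h. No array of a later time reached down to an earlier one in either genotype, and the 16 h difference was 1.59 ± 0.14 in KO cells (3.02-fold) and 1.79 ± 0.14 in WT cells (3.47-fold).

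Cox7c, Cox7a2l and Ndufa6 went the other way. Cox7c, a small subunit of complex IV at the membrane, had log2 signals in KO cells of 10.12, 10.36 and 10.35 unstimulated, 9.64, 9.64 and 9.79 after 3 h, 9.04, 9.38 and 9.28 after 8 h and 8.78, 9.10 and 9.21 after 16 h. Those in WT cells were 10.65, 10.45 and 10.20 unstimulated, 9.43, 9.64 and 9.90 after 3 h, 9.31, 9.13 and 9.39 after 8 h and 8.75, 9.16 and 9.22 after 16 h. Every stimulated array lay below the 0 h arrays of its genotype, and the 16 h difference was -1.25 ± 0.16 in KO cells (2.37-fold lower, adjusted p = 1.11e-06) and -1.39 ± 0.16 in WT cells (2.62-fold lower, adjusted p = 1.65e-07).

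Cox7a2l, also called SCAF1, is related to the complex IV subunit Cox7a2 and is known to join complexes III and IV into supercomplexes, and C57BL/6 mice are known to carry a shortened form of it. Its log2 signals in KO cells were 13.06, 13.02 and 12.51 unstimulated, 11.87, 11.91 and 11.69 after 3 h, 11.51, 11.85 and 11.54 after 8 h and 11.76, 12.14 and 11.60 after 16 h. In WT cells they were 12.78, 12.85 and 12.71 unstimulated, 11.82, 11.73 and 11.57 after 3 h, 11.47, 11.91 and 11.21 after 8 h and 11.61, 11.73 and 11.67 after 16 h. All stimulated arrays lay below the 0 h arrays of their genotype. The difference was -1.04 ± 0.16 in KO and -1.07 ± 0.16 in WT cells at 3 h, -1.23 and -1.25 at 8 h, and -1.03 and -1.11 at 16 h, with the same error. All 3 probe sets of Cox7a2l and both of Cox7c were called lower at 16 h in both genotypes. Cox7a2, the relative of Cox7a2l that is a complex IV subunit proper, was 0.86 ± 0.11 higher in KO and 0.98 ± 0.11 higher in WT cells at 16 h.

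Ndufa6, an accessory subunit of complex I that holds the mitochondrial acyl carrier protein at the matrix arm, had log2 signals in KO cells of 12.13, 12 and 12.02 unstimulated, 11.13, 10.99 and 11.15 after 3 h, 11.58, 11.50 and 11.67 after 8 h and 11.64, 11.67 and 11.82 after 16 h. The WT arrays had 12, 11.93 and 11.99 unstimulated, 11.22, 11.02 and 11.07 after 3 h, 11.44, 11.37 and 11.45 after 8 h and 11.50, 11.53 and 11.60 after 16 h. The arrays at 3 h were the lowest, those at 8 and 16 h lay between 3 h and 0 h, and none reached the 0 h arrays. The difference was -0.96 ± 0.09 at 3 h and -0.34 ± 0.09 at 16 h in KO cells (adjusted p = 6.60e-09 and 0.00363). In WT cells it was -0.87 ± 0.09 and -0.43 ± 0.09 (adjusted p = 2.81e-08 and 0.000339). Ndufab1, the acyl carrier protein itself, was 1.46 ± 0.17 higher in KO and 1.53 ± 0.17 higher in WT cells at 16 h. With arrays set to the same median, Ndufa6 kept its direction but was not called at 8 or 16 h in either genotype (adjusted p 0.128 to 0.211). Fitted on the KO arrays at 16 and 0 h alone, Ndufa6 missed the threshold there too (adjusted p = 0.0548). The comparisons at 3, 8 and 16 h share the 0 h arrays of their genotype.

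**Figure D2:**
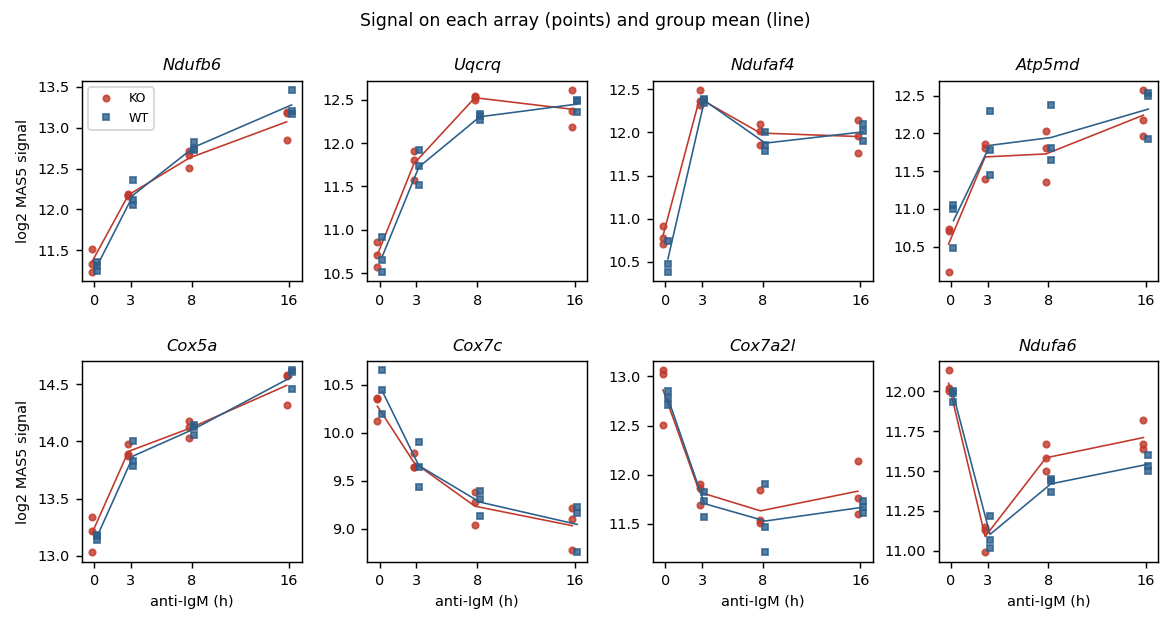
Log2 MAS5 signal of 8 genes on every array against hours of anti-IgM, with KO cells as red circles and WT cells as blue squares, drawn slightly apart at each time, and lines through the group means; each panel has its own vertical scale. Ndufb6, Uqcrq, Ndufaf4, Atp5md and Cox5a lie higher at every stimulated time than at 0 h and Cox7c, Cox7a2l and Ndufa6 lower, and the KO and WT points run together.

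Promoters are shown for the 3 genes with the highest difference at 16 h in WT cells and for the 3 that were lower, since these mark the ends of the range. RefSeq's promoter table, on the mouse build GRCm38.p6, holds 250 bases before and 50 after the start of 74 of the 90 genes. Capitals mark the motifs searched, on both strands, and no match shown overlaps another. They are NRF1 (GCGCATGC), an ETS site as bound by GABPA (CCGGAAG), YY1 (AAGATGGC), an E-box as bound by MYC (CACGTG) and the CCAAT box (CCAAT). The sequences run 5′ to 3′ on the gene's own strand, which is the minus strand for all 6. Those of the higher genes are Ndufb6 at chr4:40279372-40279671, Ndufa5 at chr6:24527477-24527776 (the first of its 2 starts listed) and Uqcr10 at chr11:4704295-4704594. Those of the lower genes are Cox7c at chr13:86046746-86047045, Cox7a2l at chr17:83514284-83514583 and Ndufa6 at chr15:82354242-82354541.
Ndufb6: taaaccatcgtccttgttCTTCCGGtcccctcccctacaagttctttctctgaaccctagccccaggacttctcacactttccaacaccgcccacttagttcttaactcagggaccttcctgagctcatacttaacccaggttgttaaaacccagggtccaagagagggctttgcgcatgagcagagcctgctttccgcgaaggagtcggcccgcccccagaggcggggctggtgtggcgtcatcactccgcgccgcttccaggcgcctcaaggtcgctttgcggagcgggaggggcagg
Ndufa5: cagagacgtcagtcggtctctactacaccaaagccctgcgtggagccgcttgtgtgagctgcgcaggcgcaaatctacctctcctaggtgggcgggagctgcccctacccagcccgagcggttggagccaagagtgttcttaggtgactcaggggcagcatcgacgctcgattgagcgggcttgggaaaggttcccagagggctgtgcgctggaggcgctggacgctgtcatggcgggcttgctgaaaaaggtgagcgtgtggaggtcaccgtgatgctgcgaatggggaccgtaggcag
Uqcr10: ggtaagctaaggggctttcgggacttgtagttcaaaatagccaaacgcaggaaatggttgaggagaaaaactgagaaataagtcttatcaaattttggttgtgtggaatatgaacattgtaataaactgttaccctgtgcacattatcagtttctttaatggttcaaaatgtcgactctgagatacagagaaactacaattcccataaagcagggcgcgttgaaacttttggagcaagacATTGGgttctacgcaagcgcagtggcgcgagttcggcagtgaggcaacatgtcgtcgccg
Cox7c: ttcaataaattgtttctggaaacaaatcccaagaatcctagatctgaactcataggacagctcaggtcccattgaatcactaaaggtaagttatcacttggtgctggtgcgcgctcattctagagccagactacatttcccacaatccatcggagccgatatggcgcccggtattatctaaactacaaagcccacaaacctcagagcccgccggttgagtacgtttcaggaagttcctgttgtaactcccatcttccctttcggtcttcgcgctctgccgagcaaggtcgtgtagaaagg
Cox7a2l: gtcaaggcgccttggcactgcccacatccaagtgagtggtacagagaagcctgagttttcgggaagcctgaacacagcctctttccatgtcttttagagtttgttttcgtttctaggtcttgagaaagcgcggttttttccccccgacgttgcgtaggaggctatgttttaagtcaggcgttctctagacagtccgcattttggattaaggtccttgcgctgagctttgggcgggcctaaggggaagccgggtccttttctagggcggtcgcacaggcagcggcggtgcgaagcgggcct
Ndufa6: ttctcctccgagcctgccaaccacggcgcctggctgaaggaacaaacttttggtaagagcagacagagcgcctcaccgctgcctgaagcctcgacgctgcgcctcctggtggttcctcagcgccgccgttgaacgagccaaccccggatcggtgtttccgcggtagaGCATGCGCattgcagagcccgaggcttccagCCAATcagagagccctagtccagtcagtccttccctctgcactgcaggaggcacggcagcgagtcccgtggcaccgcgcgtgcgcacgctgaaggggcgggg

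Among these, Ndufb6 held the ETS letters on the opposite strand at -232 from the start, Uqcr10 a reversed CCAAT box at -10, and Ndufa6, which was lower, the NRF1 letters at -83 and a CCAAT box at -52. The windows of Ndufa5, Cox7c and Cox7a2l held none of the 5 motifs. Over the 74 genes, 14.9% (11) held the NRF1 letters, 25.7% (19) the ETS letters and 13.5% (10) the YY1 letters, where 3.05%, 9.93% and 3.19% of the 27025 genes in the table did. The E-box was held by 8.11% (6) of the 74 and 8.09% of all genes, and the CCAAT box by 43.2% (32) and 41.1%. The 11 genes with the NRF1 letters were Atp5g2, Atp5k, Atp5l, Cox6a1, Ndufa6, Ndufa8, Ndufaf4, Ndufaf5, Sdhb, Uqcr11 and Uqcrc1. Of the 58 genes with a promoter that were higher at 16 h in WT cells, 9 held the NRF1 letters, 17 the ETS letters and 10 the YY1 letters. The E-box was held by 6 of the 58 and the CCAAT box by 21. Of the 16 others, 2, 2, 0, 0 and 11 held these motifs in the same order. Those 16 include Cox7b2, which did not pass the filter and was not tested. These are matches of letters in a window and no evidence of binding.

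Complex I takes electrons from NADH. Its 6 core subunits in the list, among them those that carry the flavin and the iron-sulphur clusters, were all higher at 16 h in both genotypes. Their median difference was 0.76 in KO and 0.85 in WT cells. Ndufv1, which binds NADH and the flavin, had log2 signals in KO cells of 11.38, 11.24 and 10.83 unstimulated, 11.10, 10.99 and 10.94 after 3 h, 11.90, 11.70 and 11.84 after 8 h and 12.37, 12.35 and 12.19 after 16 h. WT cells had signals of 11.08, 11.07 and 11.03 unstimulated, 11.19, 10.96 and 10.90 after 3 h, 11.84, 11.78 and 11.65 after 8 h and 12.21, 12.31 and 12.01 after 16 h. The 3 h arrays overlapped those at 0 h in both genotypes, and the 8 and 16 h arrays lay above both. The difference of Ndufv1 was -0.14 ± 0.12 at 3 h and 1.16 ± 0.12 at 16 h in KO cells, and -0.04 ± 0.12 and 1.12 ± 0.12 in WT cells. Ndufv2, which carries an iron-sulphur cluster beside it, was 1.10 ± 0.10 higher in KO and 1.23 ± 0.10 higher in WT cells at 16 h. Ndufs1, the largest subunit, had the smallest 16 h difference of the core, 0.56 ± 0.10 in KO and 0.60 ± 0.10 in WT cells.

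The 28 accessory subunits of complex I, which surround the core and stabilise it, covered a wide range. At 16 h, 22 were higher and 1 lower in KO cells and 23 were higher and 1 lower in WT cells, with medians of 0.77 and 0.76. Beside Ndufb6 and Ndufa5 the highest in WT cells were Ndufb2, with 1.58 ± 0.10 in KO and 1.61 ± 0.10 in WT cells, and Ndufc1, with 1.45 ± 0.12 in KO and 1.55 ± 0.12 in WT cells. In KO cells Ndufab1 (1.46) stood level with Ndufc1. At 3 h, 6 were higher and 5 lower in KO cells and 7 higher and 5 lower in WT cells, called shares of 39.3% and 42.9% that were near the 38.3% of all genes. Ndufb3, a subunit of the membrane arm, had log2 signals in KO cells of 11.55, 11.44 and 11.48 unstimulated, 10.94, 10.88 and 10.62 after 3 h, 11.76, 11.48 and 11.49 after 8 h and 12.08, 11.96 and 11.80 after 16 h. Those in WT cells were 11.47, 11.33 and 11.42 unstimulated, 11.21, 10.80 and 10.57 after 3 h, 11.63, 11.47 and 11.34 after 8 h and 12.04, 12.05 and 11.76 after 16 h. In both genotypes the 3 h arrays lay below and the 16 h arrays above all 0 h arrays, with differences of -0.67 ± 0.14 and 0.46 ± 0.14 in KO cells and -0.55 ± 0.14 and 0.54 ± 0.14 in WT cells, all called. With arrays set to the same median, Ndufb3 was not called at 16 h in KO cells (adjusted p = 0.105). Ndufa13, also known as GRIM-19, was lower at 3 h, with -0.88 ± 0.16 in KO and -0.67 ± 0.16 in WT cells. Its 16 h difference was 0.29 ± 0.16 in KO cells, not called, and 0.42 ± 0.16 in WT cells, called. 

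Ndufv3, a small subunit of the NADH-oxidising part of complex I, had the smallest called increase at 16 h in KO cells. Its log2 signals in KO cells were 11.22, 11.31 and 11.02 unstimulated, 10.66, 10.92 and 10.71 after 3 h, 11.12, 11.46 and 11.02 after 8 h and 11.41, 11.73 and 11.55 after 16 h. Those of WT cells were 11.22, 11.21 and 11.13 unstimulated, 10.83, 10.82 and 10.63 after 3 h, 11.14, 11.20 and 10.88 after 8 h and 11.34, 11.70 and 11.35 after 16 h. Every 3 h array lay below and every 16 h array above the 0 h arrays in both genotypes. The 16 h difference was called in KO cells (0.38 ± 0.13, adjusted p = 0.0266) and not in WT cells (0.28 ± 0.13, adjusted p = 0.109). Ndufa3, a membrane arm subunit, had the smallest called increase in WT cells. Its log2 signals in KO cells were 12.89, 12.90 and 13.03 unstimulated, 12.43, 12.47 and 12.73 after 3 h, 13, 12.85 and 13.33 after 8 h and 13.29, 13.28 and 13.48 after 16 h. WT cells gave 12.86, 12.64 and 13.13 unstimulated, 12.74, 12.13 and 12.57 after 3 h, 13.03, 12.65 and 13.16 after 8 h and 13.24, 13.16 and 13.45 after 16 h. The 16 h arrays lay above the 0 h arrays in both genotypes. The gene stood at the threshold at 16 h, with 0.41 ± 0.16 in each genotype and adjusted p of 0.0503 in KO and 0.0497 in WT cells. Tested singly, none of its 3 probe sets was called higher in either genotype, and a dim one with a mean of 7.24 was called lower in WT cells (-1.12). Averaged over the 3 probe sets the difference in WT cells was -0.10, and with arrays set to the same median the gene was not called there (adjusted p = 0.140). Ndufb4 was represented by a dim probe set, above the filter level on 13 of 24 arrays, and had the widest errors of the group, with 1.04 ± 0.47 in KO and 0.49 ± 0.47 in WT cells.

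Assembly factors help to build complex I and are no part of the finished enzyme. Of the 8 tested, 5 were higher at 16 h in each genotype and none lower, with medians of 1.05 in KO and 1.07 in WT cells. Ndufaf4, a factor of the part of complex I that binds ubiquinone, was the earliest. The KO arrays had log2 signals of 10.78, 10.92 and 10.71 unstimulated, 12.49, 12.37 and 12.32 after 3 h, 12.02, 12.10 and 11.86 after 8 h and 12.14, 11.76 and 11.96 after 16 h. In WT cells they were 10.74, 10.48 and 10.38 unstimulated, 12.39, 12.38 and 12.34 after 3 h, 11.78, 12 and 11.85 after 8 h and 12.02, 11.90 and 12.10 after 16 h. In both genotypes the 3 h arrays lay above all others, and the difference after 3 h was 1.59 ± 0.11 in KO and 1.84 ± 0.11 in WT cells. After 8 h it was 1.19 ± 0.11 in KO and 1.35 ± 0.11 in WT cells, and after 16 h 1.15 ± 0.11 and 1.47 ± 0.11. Ndufaf6 was 1.01 ± 0.19 higher in each genotype at 3 h and 1.11 ± 0.19 in KO and 1.46 ± 0.19 in WT cells at 16 h. Ndufaf2, a late assembly factor, was 1.33 ± 0.16 higher in KO and 1.67 ± 0.16 higher in WT cells at 16 h. Ndufaf3, the partner of Ndufaf4 in assembly, was lower at 3 h, with -0.90 ± 0.15 in KO and -0.81 ± 0.15 in WT cells, and was not called at 8 or 16 h.

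Complex II, succinate dehydrogenase, belongs to both the citric acid cycle and the respiratory chain, and 3 of its 4 genes were higher at 16 h in each genotype. Sdhd, a membrane anchor, was 1.02 ± 0.11 higher in KO and 1.20 ± 0.11 in WT cells, Sdhc, the other anchor, 0.86 ± 0.23 and 1.07 ± 0.23, and Sdhb, the iron-sulphur subunit, 0.56 ± 0.09 and 0.55 ± 0.09. Sdha, the flavin subunit that oxidises succinate, had log2 signals in KO cells of 12.14, 12.52 and 12.53 unstimulated, 11.54, 12.15 and 12.06 after 3 h, 12.09, 12.34 and 12.57 after 8 h and 12.16, 12.59 and 12.65 after 16 h. The WT arrays had 12.30, 12.41 and 12.53 unstimulated, 12.04, 11.93 and 12.08 after 3 h, 12.36, 12.33 and 12.54 after 8 h and 12.51, 12.63 and 12.72 after 16 h. Its 16 h arrays overlapped its 0 h arrays in both genotypes, and the difference was 0.07 ± 0.16 in KO and 0.21 ± 0.16 in WT cells, not called. At 3 h it was lower in KO cells, although the groups overlapped (-0.47 ± 0.16, adjusted p = 0.0182), and stood at -0.39 ± 0.16 in WT cells (adjusted p = 0.0506).

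Complex III hands electrons from ubiquinol to cytochrome c. At 16 h, 6 of its 8 genes were higher in each genotype and none lower, with medians of 0.90 in KO and 0.91 in WT cells. The core proteins Uqcrc1 and Uqcrc2 were 0.95 ± 0.11 and 0.84 ± 0.12 higher in KO cells and 0.96 ± 0.11 and 0.86 ± 0.12 in WT cells. Uqcrfs1, the Rieske iron-sulphur protein, was 0.80 ± 0.19 higher in KO and 0.81 ± 0.19 in WT cells. Uqcr11 was 1.25 ± 0.13 higher in KO and 1.54 ± 0.13 in WT cells. Uqcrb and Uqcrh, both small subunits, were not called at 16 h. Uqcrb differed by 0.13 ± 0.09 in KO and 0.19 ± 0.09 in WT cells, after a called difference of -0.43 ± 0.09 in each genotype at 3 h, and a dimmer probe set of Uqcrb was called higher at 16 h (0.68 in KO and 0.61 in WT cells). Uqcrh differed by 0.15 ± 0.14 in KO and 0.25 ± 0.14 in WT cells.

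Complex IV, cytochrome c oxidase, gives the electrons to oxygen. Of its 11 broadly expressed genes, 9 were higher at 16 h and 2, Cox7c and Cox7a2l, lower in each genotype, with medians of 0.84 in KO and 0.97 in WT cells. Cox5a, a subunit on the matrix side, had the highest difference. In KO cells its log2 signals were 13.03, 13.22 and 13.34 unstimulated, 13.87, 13.89 and 13.98 after 3 h, 14.13, 14.18 and 14.03 after 8 h and 14.57, 14.58 and 14.32 after 16 h. WT cells had signals of 13.14, 13.18 and 13.17 unstimulated, 14, 13.79 and 13.83 after 3 h, 14.13, 14.14 and 14.06 after 8 h and 14.62, 14.61 and 14.46 after 16 h. No 0 h array overlapped a stimulated one, and the 16 h difference was 1.29 ± 0.10 in KO cells (2.45-fold) and 1.40 ± 0.10 in WT cells (2.64-fold). Cox4i1, which contacts the catalytic core, was 0.59 ± 0.11 higher in KO and 0.67 ± 0.11 in WT cells, and Ndufa4, named for complex I but now placed in complex IV, 1.11 ± 0.27 and 1.15 ± 0.27.

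The 8 complex IV isoforms known from muscle, heart, lung or testis or from low oxygen were mostly dim. Cox7b2 and Cox8b did not pass the filter, and of the 6 tested (Cox4i2, Cox6a2, Cox6b2, Cox7a1, Cox8c and Ndufa4l2) none was called in any comparison. At an unadjusted p under 0.05 limma gave 1 of the 6 at 3 h in WT cells and none at 8 or 16 h there, none in KO cells at any time, and in KO minus WT 1, Cox6a2, at 16 h. Of all 14335 genes, limma gave 6396, 5768 and 6431 at 3, 8 and 16 h in WT cells. In KO cells it gave 6333, 5609 and 6108, and in KO minus WT at 16 h 1013. The 16 h difference was 0.38 ± 0.48 in KO and 0.06 ± 0.48 in WT cells for Cox4i2, the isoform of lung and low oxygen, and 0.57 ± 0.56 and -0.53 ± 0.56 for Cox7a1, the isoform of muscle and heart. The standard errors ran from 0.31 for Cox8c to 1.04 for Ndufa4l2, so that a missed call does not show that an isoform was unchanged. Of the 8, Cox8c alone was above the filter level on all 24 arrays, as were 81 of the 82 other genes.

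ATP synthase has a rotating F1 head in the matrix, which makes ATP, and an Fo part in the membrane joined to it by stalks. All 5 genes of F1 and all 12 of Fo and the stalks were higher at 16 h in both genotypes, and the 12 were also all higher at 8 h. The medians at 16 h were 0.76 in KO and 0.81 in WT cells for F1 and 0.98 in KO and 1.04 in WT cells for Fo and the stalks. Atp5a1 and Atp5b, the alpha and the catalytic beta subunit, were 0.92 ± 0.09 and 0.75 ± 0.11 higher in KO cells and 0.95 ± 0.09 and 0.78 ± 0.11 in WT cells. Atp5c1, the gamma subunit that turns inside the head, was 0.74 ± 0.12 higher in KO and 0.58 ± 0.12 in WT cells, the lowest of F1 in WT cells. Atp5pb, the b subunit of the stalk, was 0.72 ± 0.11 higher in KO and 0.80 ± 0.11 in WT cells, the lowest of Fo and the stalks in WT cells.

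The ring of c subunits that turns in the membrane is encoded by Atp5g1, Atp5g2 and Atp5g3, which give the same mature peptide. Atp5g1 had log2 signals in KO cells of 10.66, 10.78 and 10.80 unstimulated, 10.91, 11.23 and 11.31 after 3 h, 11.98, 11.73 and 12.20 after 8 h and 12.25, 12.17 and 12.46 after 16 h. Those in WT cells were 10.69, 10.81 and 11.01 unstimulated, 11.44, 11.14 and 11.29 after 3 h, 12.11, 11.91 and 12.04 after 8 h and 12.23, 12.35 and 12.30 after 16 h. Its stimulated arrays all lay above its 0 h arrays, although by less at 3 h, and the 16 h difference was 1.55 ± 0.13 in KO cells (2.93-fold) and 1.46 ± 0.13 in WT cells (2.75-fold). Atp5g3 was 1.05 ± 0.10 higher in KO and 1.10 ± 0.10 in WT cells, and Atp5g2 0.85 ± 0.11 and 0.93 ± 0.11. Atp5md, also called DAPIT, a small membrane subunit, had log2 signals in KO cells of 10.16, 10.71 and 10.73 unstimulated, 11.39, 11.86 and 11.81 after 3 h, 11.35, 11.80 and 12.03 after 8 h and 11.97, 12.18 and 12.57 after 16 h. In WT cells they were 11.00, 11.05 and 10.48 unstimulated, 11.45, 12.29 and 11.78 after 3 h, 11.64, 11.81 and 12.38 after 8 h and 11.93, 12.53 and 12.50 after 16 h. These replicates lay further apart than those of Atp5g1, no stimulated array fell to the 0 h range of its genotype, and the 16 h difference was 1.71 ± 0.24 in KO and 1.48 ± 0.24 in WT cells. Atp5o, the subunit that ties the stalk to the head, was 1.15 ± 0.15 higher in KO and 1.06 ± 0.15 in WT cells.

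**Figure D3:**
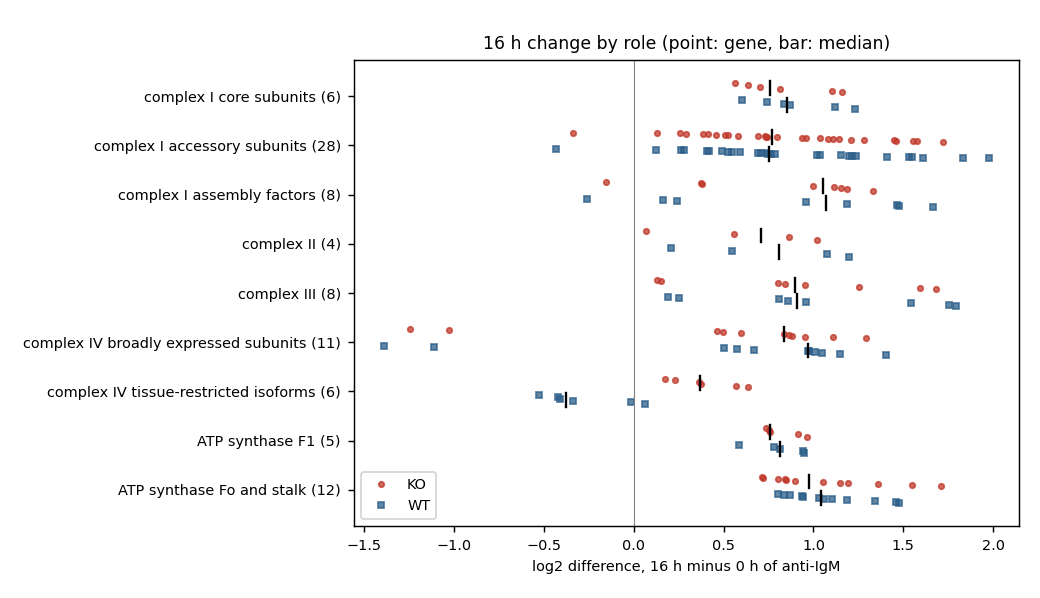
Log2 difference at 16 h against 0 h of each tested gene (points), with KO cells as red circles above WT cells as blue squares in each row, grouped by complex and role with the number of genes in brackets, and black bars at the medians. Apart from the tissue-restricted isoforms the medians lie between 0.71 and 1.07, and only accessory subunits, assembly factors and the broadly expressed complex IV genes have points below 0.

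Where a gene had several probe sets above the filter, these did not always move together. At 16 h, 49 genes had more than 1. In KO cells all probe sets were higher than at 0 h for 36 genes, all were lower for 2 and the signs were mixed for 11, and in WT cells these counts were 34, 2 and 13. Probe sets of the same gene were called in opposite directions for 1 gene in KO and 3 in WT cells. Cox8a is an example: 2 probe sets with mean log2 signals of 11.64 and 11.43 were higher at 16 h in WT cells (0.58 and 0.59), and a dim one with a mean of 6.92 was lower (-1.25).

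Markers of cell types moved with stimulation as well. The 5 B cell markers were all called lower at 3, 8 and 16 h in both genotypes, and their summed linear signals were 32837 to 41014 at 16 h against 77879 to 99798 at 0 h in KO cells and 27008 to 33940 against 85678 to 98689 in WT cells. The summed erythroid markers were 412 to 546 at 16 h against 1605 to 5093 at 0 h in KO cells and 348 to 390 against 1236 to 1719 in WT cells, with Alas2 under the filter level on every array. The macrophage markers summed to 3234 to 9585 at 16 h against 4067 to 8322 at 0 h in KO cells and 2051 to 4414 against 4382 to 11213 in WT cells, with 1 of 5 called higher in each genotype and 1 called lower in WT cells. The neutrophil markers summed to 477 to 3473 at 16 h against 503 to 3920 at 0 h in KO cells and 686 to 905 against 2171 to 3217 in WT cells, with 1 of 4 called lower in KO and 2 in WT cells. The NK cell markers summed to 146 to 258 against 345 to 634 in KO cells and 194 to 239 against 251 to 461 in WT cells, with 2 of 3 called lower in each genotype. The T cell markers summed to 207 to 324 against 251 to 533 in KO cells and 227 to 282 against 260 to 284 in WT cells, and the platelet markers to 399 to 473 against 391 to 755 and 391 to 442 against 448 to 746, with none called in either list. The part of these shifts in the differences above was not tested.

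Other gene lists were counted in the same way at 16 h. The citric acid cycle, protein import, mitochondrial ribosomal protein, electron carrier and assembly, membrane carrier, glycolysis and proteasome lists had larger shares called higher than all genes did (19.4% in KO and 20.9% in WT cells). The shares of ubiquinone synthesis and biogenesis regulators stood nearer to all genes. That of cytosolic ribosomal proteins, 16.3% in each genotype, was near that of all genes. Of 15 genes of the citric acid cycle and pyruvate dehydrogenase, 14 were higher in KO and 15 in WT cells, with medians of 0.61 and 0.58. Idh3a, a subunit of isocitrate dehydrogenase, was 1.16 ± 0.14 higher in KO and 1.34 ± 0.14 in WT cells, and Mdh2, the malate dehydrogenase of the cycle, 1.09 ± 0.09 and 1.24 ± 0.09. Pdha1 and Idh3b had the smallest called increases in WT cells, and Pdha1 was not called in KO cells (0.26 ± 0.11, adjusted p = 0.0707). All 19 genes of mitochondrial protein import were higher in both genotypes, with medians of 1.18 in KO and 1.42 in WT cells, and 16 of them were higher at 3 h in each genotype, with medians of 1.25 and 1.05. Tomm40, the pore of the outer membrane, was 2.13 ± 0.14 higher in KO and 2.34 ± 0.14 in WT cells, and Hspa9, the chaperone that pulls proteins into the matrix, 1.86 ± 0.14 and 1.96 ± 0.14. The smallest called increases in WT cells were those of Tomm22 and Timm44. Of 73 mitochondrial ribosomal proteins 66 were higher in KO and 67 in WT cells at 16 h and none lower, with medians of 0.97 and 1.07. Mrpl12, which is also known to bind mitochondrial RNA polymerase, was 1.80 ± 0.14 higher in KO and 2.16 ± 0.14 in WT cells, and Mrpl33 1.22 ± 0.25 and 2.03 ± 0.25. Mrpl43 and Mrpl57 had the smallest called increases in WT cells and were not called in KO cells.

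Of 30 genes of electron carriers and of assembly factors of complexes II to IV, 18 were higher and none lower in KO cells and 20 higher and 1 lower in WT cells. Uqcc2, an assembly factor of complex III, was 1.76 ± 0.12 higher in KO and 2.04 ± 0.12 in WT cells, and Coa7, one of complex IV, 1.54 ± 0.27 and 1.57 ± 0.27. Sdhaf2, which puts the flavin into Sdha, stood at -0.33 ± 0.13 in KO cells (adjusted p = 0.0554) and -0.37 ± 0.13 in WT cells (adjusted p = 0.0246). Cox19, a copper-related factor of complex IV, was 0.96 ± 0.13 higher in KO and 0.48 ± 0.13 in WT cells. Of 12 genes of ubiquinone synthesis, 3 were higher and 1 lower in KO and 4 higher and 1 lower in WT cells, called shares of 33.3% and 41.7% near the 35.9% and 39.3% of all genes. Coq4 was 1.36 ± 0.24 higher in KO and 1.82 ± 0.24 in WT cells and Coq3, a methyltransferase, 1.56 ± 0.20 and 1.73 ± 0.20. Coq8a, a kinase-like protein of this pathway, was lower, with -0.83 ± 0.14 in KO and -1.48 ± 0.14 in WT cells, and Coq6 had the smallest called increase in WT cells. Of 10 membrane carriers, 8 were higher in each genotype, with none lower in KO and 1 lower in WT cells, and Mpc1, a subunit of the mitochondrial pyruvate carrier, was 2.2 ± 0.13 higher in KO and 2.15 ± 0.13 in WT cells. Slc25a13, an aspartate-glutamate carrier, was 1.5 ± 0.34 higher in KO and 1.94 ± 0.34 in WT cells, and Slc25a4, an ADP/ATP carrier, 0.55 ± 0.11 and 0.69 ± 0.11. Slc25a11, a carrier of malate and oxoglutarate, was called lower in WT cells (-0.51 ± 0.12) and not in KO cells (-0.16 ± 0.12). Regulators of mitochondrial biogenesis were divided, with 6 of 18 higher and 3 lower in each genotype and medians of 0.04 in KO and -0.05 in WT cells. Pprc1, a coactivator of NRF1, was 1.33 ± 0.15 higher in KO and 1.5 ± 0.15 in WT cells, and Ssbp1, which binds single-stranded mitochondrial DNA, 0.78 ± 0.17 and 0.91 ± 0.17. Polg, the mitochondrial DNA polymerase, was lower, with -0.45 ± 0.16 in KO and -0.57 ± 0.16 in WT cells. Ppargc1a, the coactivator PGC-1alpha, was just called lower in WT cells (-1.48 ± 0.59, adjusted p = 0.0489) and not in KO cells (-0.42 ± 0.59, adjusted p = 0.646), with wide errors.

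Outside the mitochondrion, 10 of 14 glycolysis genes were higher and none lower at 16 h in each genotype, with medians of 1.54 in KO and 1.86 in WT cells, and Hk2, a hexokinase, was 2.02 ± 0.20 higher in KO and 2.06 ± 0.20 in WT cells. Slc16a1, a lactate carrier, was 2.22 ± 0.33 higher in KO and 2.64 ± 0.33 in WT cells, and Pfkl and Pkm had the smallest called increases in WT cells. Of 37 proteasome subunits, 33 were higher and 3 lower in KO and 34 higher and 3 lower in WT cells, with medians of 1.22 and 1.29. Psma5, a subunit of its core, was 1.66 ± 0.09 higher in KO and 1.9 ± 0.09 in WT cells, and Psmd1 of its cap 1.43 ± 0.12 and 1.73 ± 0.12. Psmb10 and Psmb9, subunits of the immunoproteasome, were lower, with -1.17 ± 0.19 and -1.40 ± 0.24 in KO cells and -1.54 ± 0.19 and -1.5 ± 0.24 in WT cells. Of 43 cytosolic ribosomal proteins, 7 were higher and none lower in KO and 7 higher and 1 lower in WT cells. Their medians were 0.22 and 0.21, beside 0.08 and 0.05 over all genes. Rps27l, a relative of Rps27, was 2.04 ± 0.12 higher in KO and 2.34 ± 0.12 in WT cells, while Rps27 stood at -0.999 ± 0.40 in KO cells, not called, and was lower in WT cells (-1.32 ± 0.40). Rpl39l was called higher in WT cells alone, and Rpl10a had the smallest called increase there. The difference between any of these lists and the respiratory chain genes was not tested.

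**Figure D4:**
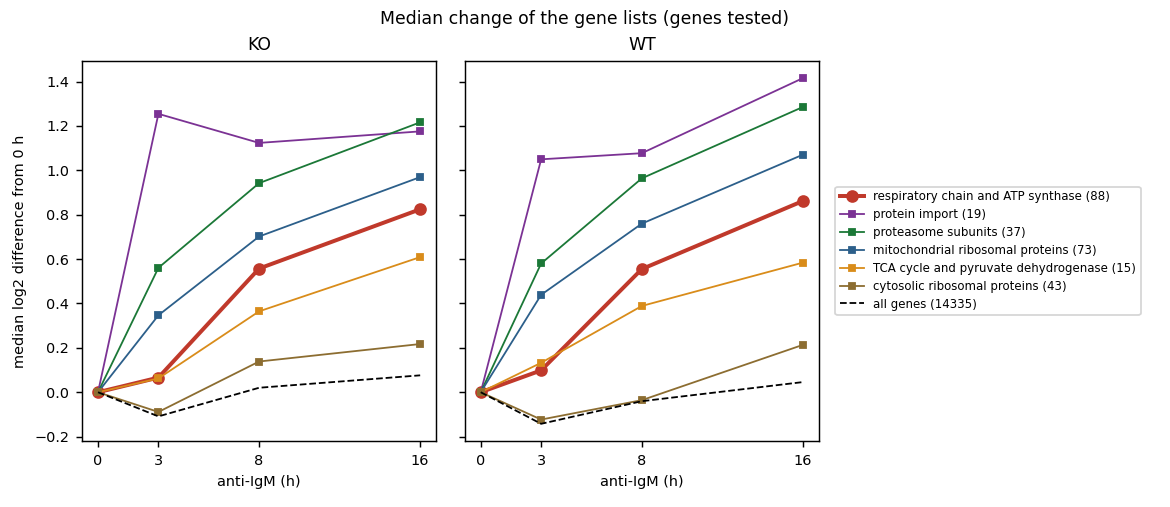
Median log2 difference from 0 h of some of the gene lists against hours of anti-IgM, in KO cells (left) and WT cells (right). The thick red line is the respiratory chain and ATP synthase list and the dashed line the median of all 14335 genes. The other lines are protein import, proteasome subunits, mitochondrial and cytosolic ribosomal proteins, and the citric acid cycle. Glycolysis and the remaining lists are not drawn. The key gives the number of genes tested. The red line stays near 0 at 3 h (0.07 in KO and 0.10 in WT cells) and reaches 0.82 and 0.86 at 16 h, while protein import is already above 1 at 3 h.

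KO and WT cells were compared at each time to ask whether NFATc1 bears on these genes. None of the 88 was called by limma in KO minus WT at 0, 3, 8 or 16 h, where 0.0349%, 0.0558%, 0.0977% and 0.614% of all genes were called. None was called in the average over the 4 times, where 1.21% of all genes were, or in the F-test of genotype by time, where 0.014% were. At an unadjusted p under 0.05 there was 1 gene in unstimulated cells, 0 after 3 h, 1 after 8 h, 1 after 16 h and 1 on average, and 0 in the F-test. Of all 14335 genes, 501, 531, 777 and 1013 had such a p at 0, 3, 8 and 16 h. On average 1382 had, and in the F-test 401. Since a missed threshold does not show that levels are alike, the intervals are given. For the 82 genes without the tissue-restricted isoforms, the averaged difference lay between -0.19 and 0.12, with a median of 0.04 and standard errors of 0.04 to 0.24. With all arrays taken as independent, its 95% interval lay within 1.5-fold (0.585 on the log2 scale) either way for all 82. The lowest limit was -0.572, close to that bound. Equally numbered arrays of a genotype deviated together, as given below, which would widen these intervals. Whether all 82 would then stay within 1.5-fold was not tested. At 0 h the differences lay between -0.44 and 0.27, at 3 h between -0.34 and 0.20, at 8 h between -0.23 and 0.30 and at 16 h between -0.23 and 0.17. The intervals of 76, 76, 77 and 80 of the 82 genes lay within 1.5-fold at these times.

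Ndufa6 had the smallest p in the average, with a difference of 0.10 ± 0.04 (95% interval 0.01 to 0.19, adjusted p = 0.459). Ndufa8, a complex I accessory subunit, followed with 0.11 ± 0.06 (adjusted p = 0.557). Ndufs8, an iron-sulphur subunit of complex I, had the smallest p among the genes with a lower average in KO cells, -0.12 ± 0.06 (adjusted p = 0.594), and Atp5md, with -0.19 ± 0.12 (95% interval -0.44 to 0.06), came next. Groups that did not overlap were found for 5 of the 88 genes in unstimulated cells and for 2, 8 and 4 after 3, 8 and 16 h, where 7.81% of all genes tested did not overlap at 0 h and 7.92%, 9.48% and 10.2% at the later times. The share of the 88 genes was near that of all genes at 8 h and lower at the other times, and the gap was not tested. Markers of cell types differed between genotypes at some times. The B cell marker Cd22 was called higher in KO cells at 8 h (1.02 ± 0.20), at 16 h (1.41 ± 0.20) and on average (0.78 ± 0.10), and the macrophage marker Adgre1 at 16 h (1.18 ± 0.24). The NK cell marker Nkg7 was called lower in KO cells at 16 h (-2.65 ± 0.57), and the erythroid marker Car2 was higher on average (0.64 ± 0.15). No other marker tested was called in KO minus WT, and the part of these differences in the values of the 88 genes was not tested.

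At 16 h the log2 signals of Ndufa6 were 11.64, 11.67 and 11.82 in KO cells against 11.50, 11.53 and 11.60 in WT cells. The KO arrays lay above the WT arrays without overlap, and the difference of 0.17 ± 0.09 was not called (adjusted p = 0.808). Cox6a2, a muscle isoform, had 7.48, 7.40 and 7.14 in KO cells against 7.14, 6.73 and 5.58 in WT cells, groups that touched, with a difference of 0.85 ± 0.39 and the smallest p at this time (0.0378, adjusted 0.647). In the other direction, Ndufb6 differed by -0.20 ± 0.11 with overlap (adjusted p = 0.820). Atp5mpl, a small subunit of ATP synthase, had 12.97, 12.91 and 12.93 in KO cells against 13.18, 13.19 and 12.98 in WT cells. Those groups did not overlap, and the difference was -0.18 ± 0.11 (adjusted p = 0.870).

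At 8 h, Ndufa8 had 11.76, 11.53 and 11.83 in KO cells against 11.50, 11.42 and 11.45 in WT cells, and Ndufb11, a membrane arm subunit, 12.93, 13.10 and 12.85 against 12.82, 12.70 and 12.63. Both were higher on every KO array, by 0.25 ± 0.11 (unadjusted p = 0.0404, adjusted p = 0.882) and 0.24 ± 0.12 (adjusted p = 0.953). Ndufs8 had 12.72, 12.98 and 12.57 in KO cells against 12.86, 12.96 and 13.14 in WT cells, and Ndufaf2 9.62, 9.27 and 9.18 against 9.48, 9.80 and 9.48. Their groups overlapped, with differences of -0.23 ± 0.13 and -0.22 ± 0.16.

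At 3 h, Uqcrc2 had 12.99, 12.71 and 13.07 in KO cells against 12.80, 12.64 and 12.90 in WT cells, and Ndufaf6 9.43, 9.05 and 9.28 against 8.91, 9.05 and 9.20. The groups overlapped, with differences of 0.14 ± 0.12 and 0.20 ± 0.19. Ndufaf1, an assembly factor of the membrane arm, had 8.88, 8.96 and 9.04 in KO cells against 9.13, 9.44 and 9.34 in WT cells, and the dim isoform Cox4i2 5.45, 5.78 and 5.49 against 6.75, 6.78 and 5.84. Neither overlapped between genotypes, and neither was called, with -0.34 ± 0.19 for Ndufaf1 and -0.88 ± 0.48 for Cox4i2 (adjusted p = 1.00 for both). In unstimulated cells, Ndufaf4 had 10.78, 10.92 and 10.71 in KO cells against 10.74, 10.48 and 10.38 in WT cells, groups that overlapped, with a difference of 0.27 ± 0.11 (unadjusted p = 0.0253, adjusted p = 1.00). Uqcrc1 differed by 0.18 ± 0.11, Cox8c by -0.42 ± 0.31 and Ndufaf7, a methyltransferase of complex I assembly, by -0.17 ± 0.13, each with overlap.

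The size of the response to anti-IgM was compared between the genotypes with the interaction of genotype and time. Over the 82 genes, the response at 16 h in KO cells minus that in WT cells lay between -0.35 and 0.55, with a median of -0.05 and 61 of 82 intervals within 1.5-fold. At 8 h it lay between -0.33 and 0.41, with a median of 0.02 and 64 of 82 within 1.5-fold, and at 3 h between -0.28 and 0.49, with a median of -0.05 and 64 of 82 within. None of the 88 genes was called in these comparisons by limma, where 0%, 0% and 0.0209% of all genes were called at 3, 8 and 16 h. At 16 h 1 of them, Atp5mpl, had an unadjusted p under 0.05, and at 3 and 8 h none had. Of all 14335 genes, 626 had such a p at 16 h, 330 at 3 h and 446 at 8 h.

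**Figure D5:**
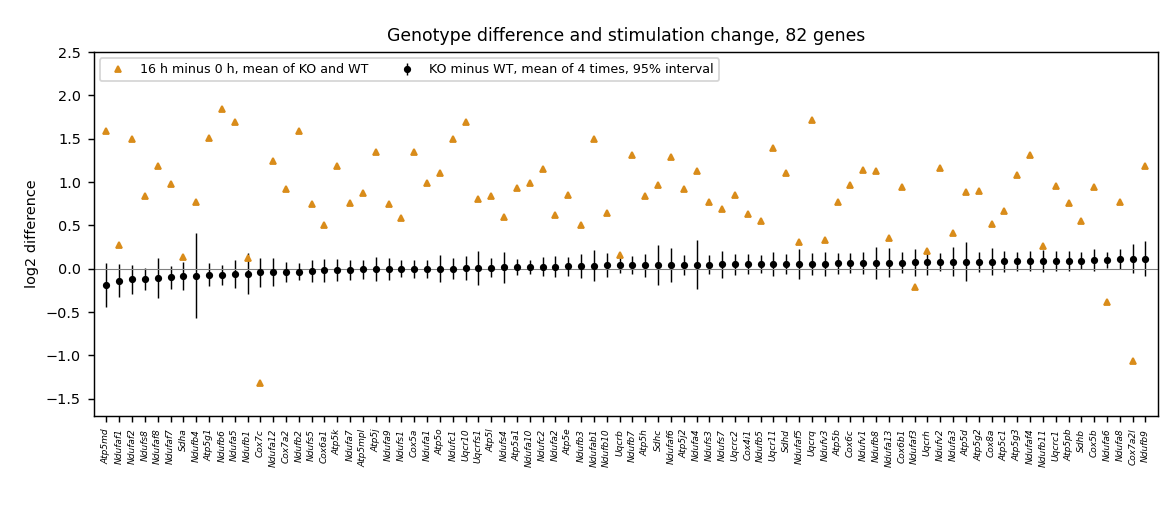
For each of the 82 genes, ordered by the black points, the KO minus WT difference averaged over the 4 times with its 95% interval (black) and the 16 h minus 0 h difference averaged over KO and WT cells (orange triangles), on 1 log2 axis. The black points lie between -0.19 and 0.12, and most triangles lie above 0.5, with Cox7c, Cox7a2l, Ndufa6 and Ndufaf3 below 0.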

How the data were processed

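RNA of splenic B cells was measured on 24 Affymetrix arrays, 3 biological replicates for each of 2 genotypes and 4 times. The authors deposited log2 signals, made with MAS5 per the submitters' processing notes, which give no version. They were used as deposited, and the trimmed mean of the linear signals was 496 to 498 on every array. The array has 45101 probe sets, and the probe table pairs 34945 of them with 1 gene symbol. Another 932 probe sets carry several symbols and were not used, 10 of them for genes of the respiratory chain and ATP synthase list. A probe set had to be above the 40th percentile of its array on 3 or more arrays, and the probe set with the highest mean stood for its gene, which left 14335 genes. There are no read counts, and the number of arrays limits the precision.

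Tests were made with limma 3.58.1 under R 4.3.3, with a mean for each of the 8 groups fitted together (16 residual and 6.80 prior degrees of freedom, trended prior variance), Benjamini-Hochberg adjustment over all genes tested and a threshold of 0.05. Intervals are at 95%. The fit was tested on simulated data. Other steps used Python 3.11.15. The genes, roles, lists, motifs and alternatives were chosen with earlier results of these data known, and the patterns that define the ribosomal and proteasome lists were tightened after the data were seen. Every gene of the main list may be named. Array values are given for the 4 called genes at each end of the range at 16 h, the 2 at each end at 3 and 8 h, and those of smallest p between genotypes. Exceptions are Uqcrc1, Cox8c and Ndufaf7 in unstimulated cells, for which differences alone are given. Named too are the extremes of each role and, in WT cells at 16 h, the 2 called genes at each end of every other list. Array values of Ndufv1, Ndufb3, Sdha, Cox5a and Atp5g1 and the promoters of the lower genes were added after their values were seen. The symbols of all 90 genes matched RefSeq through their Entrez identifiers.

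The deviations of equally numbered arrays of a genotype from their group means had correlations of 0.02 to 0.37 over genes (median 0.09, 36 pairs). For equally numbered arrays of different genotypes the median was 0.06 (48 pairs). For differently numbered arrays it was -0.05 within a genotype (72 pairs) and -0.03 between genotypes (96 pairs). The labels name no shared animal, so that the main fit has no replicate block, and blocks were fitted as alternatives only. The alternatives were other scalings, filters, probe set rules, floors, fold minimums, blocks, fits on the compared groups and each array left out in turn, with their effects given below.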

Additional observations from a re-analysis of the deposited data

How the results depend on the processing

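The counts of called genes at 8 and 16 h changed by less than 1.5 times under every alternative run except a fold minimum, and those between genotypes were 0 under each. The shares of all genes called under each alternative are not given here, so these counts cannot be set beside the whole array. With at least 1.5-fold asked as well, 16 of the 88 genes were called at 3 h and 42 at 8 h in KO cells (11 higher and 5 lower, 40 higher and 2 lower) and 17 at 3 h in WT cells (12 higher and 5 lower), which follows from the stricter rule. With arrays set to the same median, 19 were called at 3 h in KO cells (15 higher and 4 lower), and the cause was not tested. Under that scaling 46 of 528 results of single genes (88 genes, 6 comparisons with 0 h) were no longer called. At 16 h these were Ndufa6 and Cox8a in both genotypes, Ndufa3 in WT cells and Ndufb3, Ndufs4, Ndufv3 and Cox6a1 in KO cells. Leaving out each array in turn gave 23 to 32, 57 to 65 and 69 to 72 called genes at 3, 8 and 16 h in KO cells, and 30 to 34, 56 to 63 and 70 to 72 in WT cells.

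With replicate number as a fixed block, 41, 66 and 74 genes were called at 3, 8 and 16 h in KO cells and 46, 67 and 75 in WT cells, and with genotype and replicate number as a random block (correlation 0.208) 35, 66 and 74 in KO and 43, 65 and 74 in WT cells. Neither block lost a call of a named gene, and the labels do not say whether equal numbers are pairs. Averaging all probe sets of a gene turned the sign of Ndufa3 (-0.10) and Cox8a (-0.025) at 16 h in WT cells, of Ndufs4 at 3 h in WT cells (-0.42), and of Atp5g2 at 3 h in KO (0.76) and WT cells (0.56), which brings dim probe sets in. No fit on the compared groups alone was made for the averaged difference or the F-test, and no fold minimum for the F-test. Leaving out the 2 arrays of highest background, chosen after the data were seen, left 58 and 71 calls at 8 and 16 h in KO cells, and leaving out the 4 male-type arrays 53 and 67 in WT cells.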
